A study of Scophthalmus maximus with 8 samples.

Results

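Regions of the turbot genome that carried an accessibility peak in the embryo and again at the climax of metamorphosis, but had none in the pre-metamorphic larva, numbered 3424 of the 114193 regions in the atlas. They were chosen from the peak calls themselves. The peaks of the 4 stage lists were joined into 1 region wherever they shared at least 1 bp, and a region was kept when it held a 3dpf peak and a 23dph peak and no 15dph peak. A 37dph peak was not part of the choice, and it separates the set into 2491 regions without a peak in the juvenile and 933 with one, which are described apart.

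The assay was ATAC-seq in turbot (*Scophthalmus maximus*), with 2 biological replicates at each of 4 stages, 8 samples in all. The 3dpf animals (3 days post fertilization, the phylotypic stage) were used whole after removal of the chorion. Ages after hatching are counted in days post hatching (dph), and the pre-metamorphic 15dph larvae, the 23dph animals at the climax of metamorphosis and the post-metamorphic 37dph juveniles were used without the rear part of the body behind the cloaca. No treatment, genotype or strain is stated for any sample. Tissues were dissociated to single cells, so that each library mixes the cell types of a body. Stage and sampled material change together between 3dpf and the later stages and cannot be told apart. The paper also states a longer enzyme incubation for dissociation at each later stage, so incubation time and stage cannot be told apart either. The list used for 23dph carries another day number in its name and is assigned here by the labels of its samples.

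In ATAC-seq the Tn5 transposase cuts DNA that is not wrapped in nucleosomes and leaves sequencing adapters there, so reads pile up at open promoters and enhancers. Such elements open and close as cells take on their identities, and many enhancers are accessible in 1 cell type or for 1 period of development. Flatfish metamorphosis turns an upright larva with an eye on each side into a bottom-living juvenile with both eyes on the same side, and it is driven by thyroid hormone.

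Each stage had 1 list of peaks that were reproducible between its replicates, and no values of single replicates were used. The embryo list held 94714 peaks, the 15dph list 57611, the climax list 47853 and the 37dph list 46248. Values therefore have no error between replicates and no test was run. The 95% Wilson intervals below cover only the counting of regions, and neighbouring regions are not independent replicates. Where a peak is missing, the replicates gave no reproducible call, and the chromatin need not have been closed. The stages are also different animals, so the peaks of a region at 3dpf and 23dph do not follow 1 animal through time.

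The rule took 3.00% of all regions (interval 2.90 to 3.10). Regions with both a 3dpf and a 23dph peak numbered 38236, and 8.95% of them (8.67 to 9.25) lacked a 15dph peak. The opposite gap was more frequent. Among the 45014 regions with 3dpf and 15dph peaks, 22.7% (22.3 to 23.1, 10202 regions) lacked a 23dph peak. Seen from the embryo, the set was 3.66% of the 93637 regions with a 3dpf peak, and 7.04% of the 48623 whose 3dpf peak had no 15dph counterpart. Seen from the climax, it was 46.6% (45.4 to 47.7) of the 7350 regions with a 23dph peak and no 15dph peak. An embryo peak was thus less frequent there than the 82.8% over all regions with a 23dph peak, the 89.6% (89.3 to 89.9) over those with a 15dph peak as well, and the 82.0% over the whole atlas. The 15dph list held more peaks than the 23dph list. With the same number of peaks taken from every list, 6.46% of regions with 3dpf and 23dph peaks lacked 15dph and 11.6% of those with 3dpf and 15dph peaks lacked 23dph, so the order of the shares was the same. The same setting gave 1792 members, of which 68.4% were also members with the full lists. With it, the share of 23dph regions without 15dph that had an embryo peak was 19.9% in place of 46.6%. Equal lists cut the 3dpf list from 94714 to 46248 peaks, more than any other list, which by itself lowers a share with an embryo peak. The same share over all 23dph regions was not computed with equal lists.

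**Figure D1:**
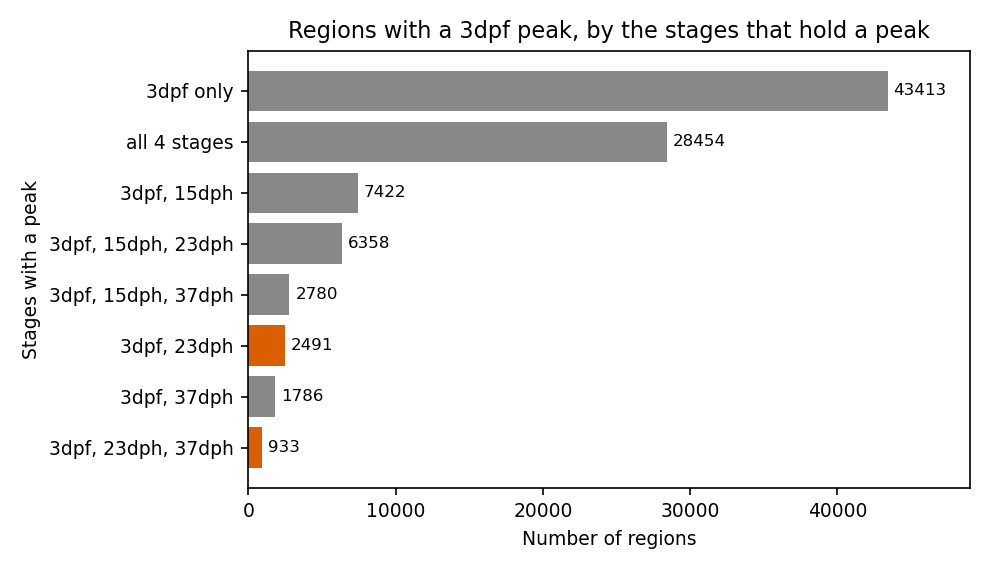
Number of regions with a 3dpf peak (horizontal axis) for each combination of stages that held a peak (vertical axis). The members (orange) are the 2491 regions with 3dpf and 23dph peaks and the 933 with a 37dph peak as well, against 43413 regions with a peak at 3dpf alone and 28454 with a peak at all 4 stages.

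A 37dph peak was present in 933 of the 3424 regions, or 27.2% (25.8 to 28.8), and absent from 2491, or 72.8%. The background was 38.6% over all regions and 70.4% over the regions with a 23dph peak. Where a 15dph peak was called too, 81.7% of the 34812 regions with 3dpf, 15dph and 23dph peaks had one at 37dph. The share in the set was close to that of the regions with the opposite gap, of which 27.2% (26.4 to 28.1) had a 37dph peak. This closeness depended on the setting: the share was 33.4% in the set against 25.7% in the opposite gap when 50% of both peaks had to be shared, 26.5% against 30.5% at an IDR (reproducibility) limit of 0.01 in every list, and 24.0% against 28.5% with the top 50% of every list. Under the IDR and top 50% settings, reported members made up 32.7% and 13.0% of the regions counted as the set. With the full lists and all strengths of the 23dph peak together, the share in the set was above the 21.7% (20.5 to 23.0) of the 3926 regions with a 23dph peak and neither a 3dpf nor a 15dph peak. It was also above the 3.95% of the 45199 regions with a 3dpf peak and neither a 15dph nor a 23dph peak. Read from the side of the juvenile, 3.17% (2.98 to 3.38) of the 29387 regions with 3dpf, 23dph and 37dph peaks lacked 15dph, against 28.2% (27.2 to 29.1) of the 8849 regions with 3dpf and 23dph peaks and no 37dph peak. The share with a 37dph peak was higher, 47.8%, in the 134 members left when the 3dpf and 23dph lists were cut to their strongest 50%.

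The climax peaks of the set were weak ones. Strength is given as the percentile of a peak's −log10 p within its own list, from 0 for the weakest to 100 for the strongest, since p-values of different lists cannot be compared directly. In the 2491 regions without a 37dph peak the median percentile was 43.4 at 3dpf (interquartile range 23.8 to 63.7) and 18.0 at 23dph (8.95 to 29.9). In the 933 regions with a 37dph peak it was 35.9 at 3dpf (19.8 to 60.0), 24.6 at 23dph (12.7 to 38.9) and 27.5 at 37dph (13.2 to 42.4). The embryo peak was thus placed lower and the climax peak higher where the juvenile had a peak too. Regions with a peak at all 4 stages had medians of 77.4, 74.0, 68.7 and 67.1 in the order of the stages. The regions with a 3dpf peak alone had a median of 33.6 and those with a 23dph peak alone 13.1, both below the medians of the set at the same stage. With a 37dph peak as well, these medians were 30.7 and 20.4, so they shifted in the same directions as in the set. In regions with 3dpf, 15dph and 23dph peaks the 3dpf median went the other way, 64.8 without a 37dph peak and 77.4 with one. Regions with the opposite gap had medians of 49.1 at 3dpf and 26.1 at 15dph.

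Fold enrichment over the local background gave the same picture on its own scale. The median fold was 4.80 at 3dpf and 3.76 at 23dph in the regions without a 37dph peak. It was 4.56 at 3dpf, 3.88 at 23dph and 4.02 at 37dph in those with one. Over the whole lists it was 4.97 at 3dpf, 4.63 at 23dph and 4.74 at 37dph, so the climax peaks of the set lay further below their list than the embryo peaks did. In the upper 50% of their list were 1368 of the 3dpf peaks (40.0%) but 224 of the 23dph peaks (6.54%, 5.76 to 7.42). By subgroup, the 23dph peak was in the upper 50% in 4.46% of the regions without a 37dph peak and in 12.1% of those with one. In the strongest 10% of a list were 72 of the 3dpf peaks and 1 of the 23dph peaks.

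Taking both stages together, 134 regions (3.91%) had a peak in the upper 50% of both lists, 70 of them without a 37dph peak and 64 with one. A strong embryo peak beside a weak climax peak was found in 1234 regions (36.0%), and the reverse in 90 (2.63%). Both peaks were in the lower 50% in 1966 regions (57.4%). In regions with 3dpf, 15dph and 23dph peaks and no 37dph peak, a strong embryo peak beside a weak climax peak was more frequent, at 48.7%. The reverse was found in 4.26% of them, both peaks in the upper 50% in 19.9% and both in the lower 50% in 27.1%. With a peak at all 4 stages these shares were 13.7%, 7.44%, 65.8% and 13.1%. The 23dph peak was placed lower in its list than the 3dpf peak in 79.4% of the regions without a 37dph peak and in 68.0% of those with one, against 65.7% of the regions with a peak at all 4 stages and 83.1% of the 6358 with 3dpf, 15dph and 23dph peaks and no 37dph peak. A lower place at 23dph was therefore shared by regions that did have a 15dph peak. Across the set the 2 percentiles were weakly related, with a Spearman coefficient of 0.118 and a Pearson coefficient of 0.138 over the 3424 regions. The Spearman coefficient was 0.0914 without a 37dph peak and 0.239 with one. In the 28454 regions with a peak at all 4 stages it was 0.731. These coefficients run across regions of the same lists, and the rule keeps mostly weak 23dph peaks, which narrows their range.

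**Figure D2:**
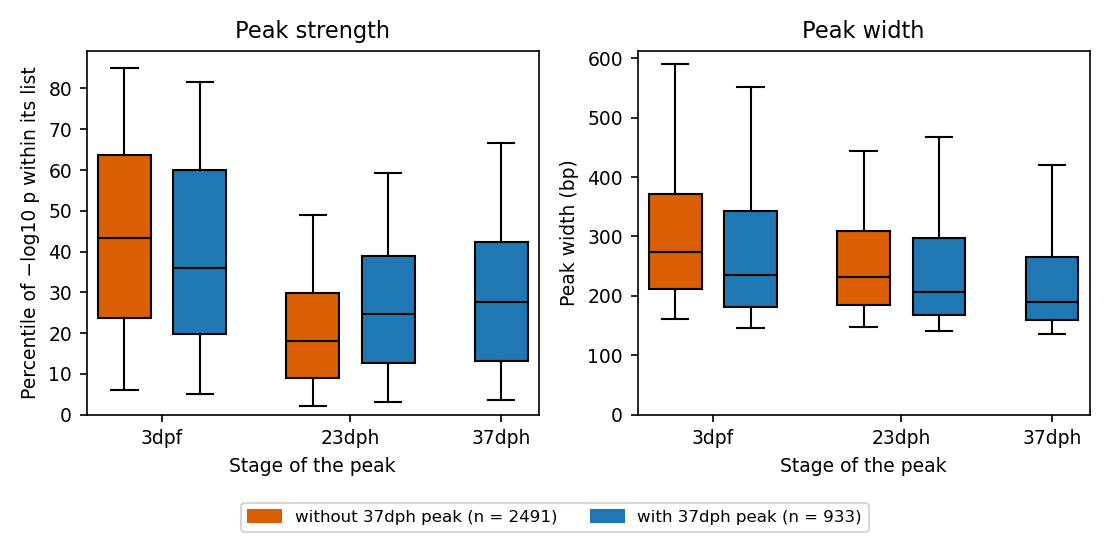
Percentile of −log10 p within its list (left) and peak width in bp (right) at each stage, for the 2491 members without a 37dph peak (orange) and the 933 with one (blue). Lines are medians, boxes quartiles and whiskers the 5th and 95th percentiles, and the 23dph boxes sit lowest on the left, at medians of 18.0 and 24.6.

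How often the 15dph peak was missing depended on where the 23dph peak stood in its list. In the weakest 10% of 23dph peaks, 895 of the 2287 regions with 3dpf and 23dph peaks lacked 15dph, or 39.1%. The share went down through every decile, to 7.66% in the fifth, 1.30% in the seventh (57 of 4394) and 0.0209% in the strongest (1 of 4776). By the strength of the 3dpf peak it went from 29.4% in the weakest decile to 0.851% in the strongest (72 of 8460). The opposite gap had the same shape at a higher level. The 23dph peak was missing from 75.7% of the regions with 3dpf and 15dph peaks in the weakest decile of the 15dph list (1883 of 2487) and from none of 5753 in the strongest, which allows a share of up to 0.0667%. The members thus came largely from the range of strengths in which calls of either stage were often missing. The part of detection in their membership was not tested.

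**Figure D3:**
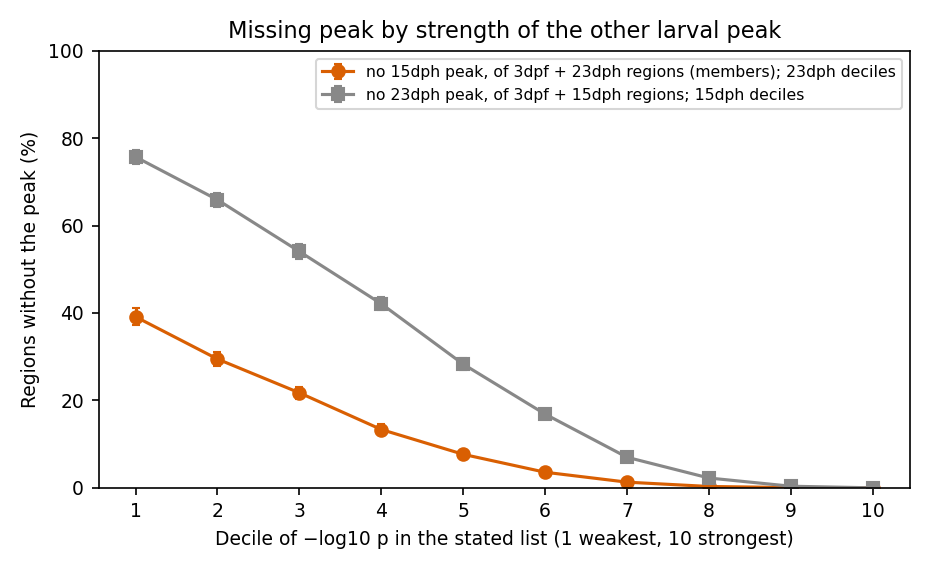
Share, with 95% Wilson intervals, of regions lacking a peak (vertical axis, %) by decile of −log10 p of a peak they have (horizontal axis, 1 weakest to 10 strongest). Both curves fall toward the strong end, and the share lacking 15dph by 23dph decile runs from 39.1% to 0.0209%, below that of regions lacking 23dph by 15dph decile, which starts at 75.7%.

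Among regions with a 23dph peak and no 15dph peak, the share with a peak in the embryo rose with the strength of the 23dph peak. It was 38.0% in the weakest decile of the 23dph list, 50.5% in the third, 59.8% in the fifth and 70.4% in the seventh (57 of 81). In the eighth decile it was 77.8%, of 18 regions. Such a rise was not particular to regions lacking 15dph. Over all regions with a 23dph peak, 82.8% had an embryo peak, and in the strongest 23dph decile 4776 of 4777 had one. From the other side the gradient was shallow: of regions with a 3dpf peak and no 15dph peak, 4.45% had a 23dph peak in the weakest decile of the 3dpf list and 10.6% in the strongest. Over all regions with a 3dpf peak, 38236 of 93637 had a 23dph peak, and in the strongest 3dpf decile 8460 of 9450 had one.

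The 37dph peak followed the strength of the 23dph peak in the same direction. Within the set it was present in 20.4% of the regions in the weakest 23dph decile (183 of 895), 34.9% in the fifth, 44.3% in the sixth and 59.6% in the seventh (34 of 57). By the strength of the embryo peak it ran the other way, from 34.0% in the weakest 3dpf decile (120 of 353) to 13.9% in the strongest (10 of 72). The fall was uneven, with 22.7% in the sixth 3dpf decile and 26.1% in the seventh. Regions with a 3dpf peak and neither a 15dph nor a 23dph peak also showed a fall, from 4.06% in the weakest 3dpf decile to 1.32% in the strongest. In regions with a 23dph peak and neither a 3dpf nor a 15dph peak, the 37dph share was 14.2% in the weakest 23dph decile and 52.9% in the sixth. In regions with 3dpf, 15dph and 23dph peaks it was 49.6% and 81.5% in the same deciles. At a given strength of the climax peak, the members thus lay well below the regions with a 15dph peak, and nearer to the regions of the climax that lacked both earlier peaks.

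**Figure D4:**
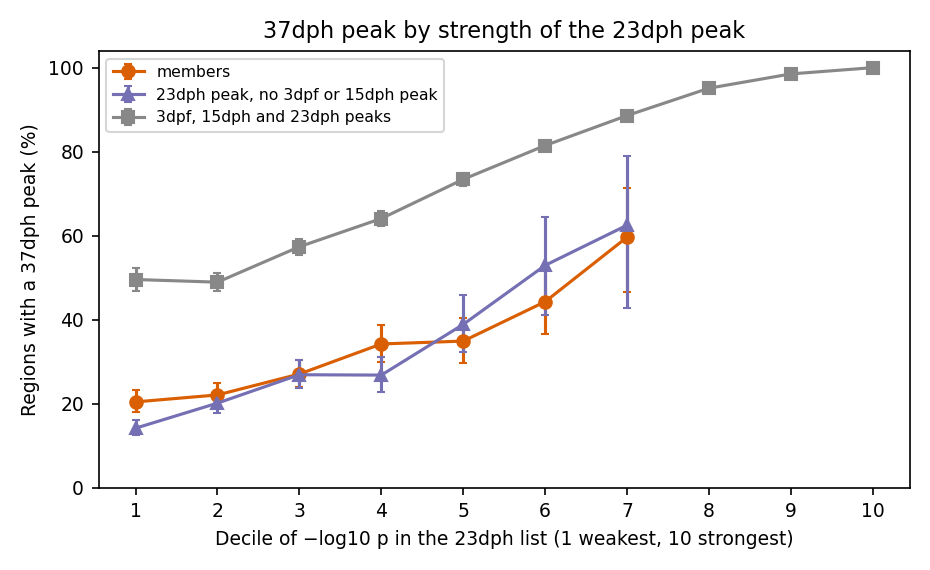
Share of regions with a 37dph peak (vertical axis, %) by decile of −log10 p in the 23dph list (horizontal axis, 1 weakest to 10 strongest), for deciles of at least 20 regions, with 95% Wilson intervals. The members run from 20.4% to 59.6%, below the regions that also have a 15dph peak, which start at 49.6%.

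A stricter reproducibility limit separated the stages in the same way. IDR, the irreproducible discovery rate, is estimated from how well the ranks of matched peaks match between replicates. The global IDR of a peak estimates the share of irreproducible peaks among those ranked at least as high. The lists hold peaks up to 0.1. At a limit of 0.01, 64.7% of the 3dpf peaks but 14.3% of the 23dph peaks in the regions without a 37dph peak would have been kept. In the regions with a 37dph peak these shares were 58.2% at 3dpf, 29.8% at 23dph and 38.2% at 37dph. In the regions with the opposite gap, 70.2% of 3dpf and 35.6% of 15dph peaks passed. Over the whole lists 68.1% of 3dpf, 65.0% of 23dph and 67.6% of 37dph peaks passed. The strongest peaks of both stages passed in 265 regions (10.6%) without a 37dph peak and in 182 (19.5%) with one, together 13.1% of the set, against 82.2% of the regions with a peak at all 4 stages and 39.2% of those with 3dpf, 15dph and 23dph peaks and no 37dph peak.

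Members were narrower where the juvenile had a peak, and so were regions of other classes. Without a 37dph peak the median width of the embryo peak was 274 bp (interquartile range 212 to 371.5) and that of the climax peak 231 bp (184 to 309). With one, the embryo peak had a median of 235 bp (182 to 343), the climax peak 206 bp (168 to 297) and the juvenile peak 189 bp (160 to 266). The whole lists had medians of 274 bp at 3dpf, 238 bp at 23dph and 204 bp at 37dph, so the subgroup without a 37dph peak was close to the lists and the other lay below them at each stage. Outside the set, the 3dpf median was 272 bp in regions with a 3dpf peak alone and 230 bp with a 37dph peak as well. In regions with 3dpf and 15dph peaks and no 23dph peak, it was 308 bp without and 217 bp with a 37dph peak. The 23dph median was 222 bp in regions with a 23dph peak alone and 205 bp with a 37dph peak as well. The 23dph peak was narrower than the 3dpf peak in 69.7% of regions without a 37dph peak and in 65.4% of those with one, and in 73.0% of the regions with a peak at all 4 stages. In the subgroup with a 37dph peak, that peak was narrower than the 3dpf peak in 661 regions (70.8%) and narrower than the 23dph peak in 532 (57.0%), against 82.2% and 69.3% of the regions with a peak at all 4 stages.

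The centres of signal of the embryo and climax peaks mostly lay close together, which is in part set by the rule. Peaks were joined by overlap, which limits this distance and ensures that most pairs share bases. The summit, the position of highest signal in a peak, moved by a median of 22 bp between 3dpf and 23dph in the regions without a 37dph peak (interquartile range 6 to 56) and by 12 bp (4 to 40) in those with one. In the latter the 37dph summit lay a median of 13 bp from the 23dph summit and 17 bp from that of 3dpf. Regions with a peak at all 4 stages had a median of 9 bp between 3dpf and 23dph. Summits lay within 10 bp in 38.8% of the members and 53.0% of those regions. The same share was 37.2% in the regions with 3dpf, 15dph and 23dph peaks and no 37dph peak. Summits were more than 100 bp apart in 392 regions (11.4%), up to 728 bp, and in 10.4% of the regions with 3dpf, 15dph and 23dph peaks and no 37dph peak. At least 50% of both peaks was shared in 3008 members (87.9%), and in 1465 (42.8%) the 23dph peak lay wholly within the 3dpf peak. These shares were 88.7% and 51.5% in regions with 3dpf, 15dph and 23dph peaks and no 37dph peak. With a peak at all 4 stages they were 91.8% and 51.5%, so the overlap was not particular to the set. More than 1 peak of the same stage was found in 76 members (2.22%), against 10.7% of the regions with a peak at all 4 stages, which have more stages to count. Stage by stage, more than 1 3dpf peak was found in 0.789% of members and 2.94% of those regions. For 23dph peaks these shares were 0.935% and 4.93%. Regions with 3dpf, 15dph and 23dph peaks and no 37dph peak were nearer to the members. Their shares were 4.31% for any stage, 1.46% for 3dpf peaks and 1.73% for 23dph peaks. In 3 members, all with a 37dph peak, the strongest 3dpf and 23dph peaks did not overlap directly and were joined through other peaks.

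The subgroups differed in the same direction on most chromosomes. Taken chromosome by chromosome, the median 23dph percentile was higher with a 37dph peak on 20 of 22, and the median 3dpf percentile was lower on 19. The median width was lower on 19 chromosomes at 3dpf and on 20 at 23dph. The chromosomes come from the same libraries and are not replicates.

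The nearest 15dph peak was usually some distance away. Its median distance from the edge of the region was 2698 bp for the regions without a 37dph peak and 1980 bp for those with one, and 2520.5 bp over the set (interquartile range 747.75 to 5891.25). Regions with a 3dpf peak alone lay a median of 3188 bp away, those with 3dpf and 37dph peaks 1733 bp, and those with a 23dph peak alone 3464 bp. With and without a 23dph peak alike, the embryo regions that had a 37dph peak lay closer to a 15dph peak. A 15dph peak lay within 100 bp of 210 members (6.13%), which were 4.98% of those without and 9.22% of those with a 37dph peak. The same share was 2.90% for regions with a 3dpf peak alone and 10.1% for those with 3dpf and 37dph peaks. Within 500 bp there was a 15dph peak for 676 members (19.7%), and 403 (11.8%) had none within 10000 bp. For the 676, the neighbouring 15dph peak had a median percentile of 60.4 (interquartile range 28.9 to 82.3), against 50.6 over all regions with a 15dph peak. It belonged to a region with a peak at all 4 stages in 396 (58.6%, 54.8 to 62.2) and to a region with a 15dph peak alone in 52 (7.69%), where these classes make up 50.5% and 10.0% of all regions with a 15dph peak.

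**Figure D5:**
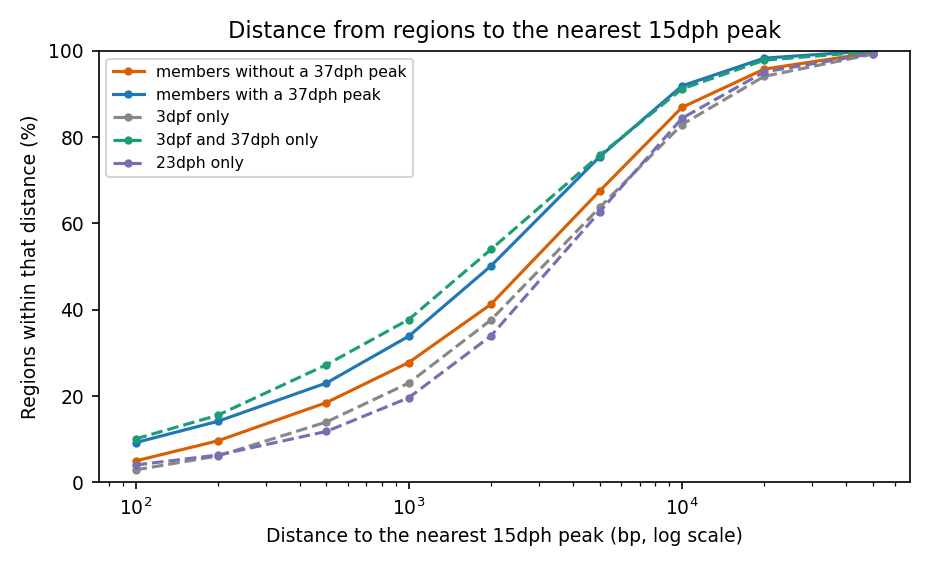
Share of regions (vertical axis, %) with a 15dph peak within a given distance in bp (horizontal axis, log scale). Members with a 37dph peak lie closer to 15dph peaks than members without one, with medians of 1980 and 2698 bp.

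At the edge of the rule, the members nearest to a 15dph peak were 14, 14 and 16 bp from it, and none shared a base with one. The 210 members within 100 bp had median percentiles of 47.0 at 3dpf and 21.1 at 23dph, median widths of 272.5 and 193 bp, and a 37dph peak in 86 (41.0%). Just outside the rule were 6 regions whose 15dph peak shared at most 100 bp with the 3dpf and 23dph peaks. Their median percentiles were 78.8 at 3dpf and 11.95 at 23dph, their median widths 418 and 293 bp, and 3 of them had a 37dph peak.

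The set was spread over the genome. It took between 2.34% of the atlas regions on chromosome 21 (1.89 to 2.90) and 3.52% on chromosome 17 (3.03 to 4.08), and the interval held the overall share on 20 of 22 chromosomes. Chromosome 5 had the largest number (199) and chromosome 21 the smallest (82), while 2 members lay on sequences outside the chromosomes. The share with a 37dph peak ran from 18.1% on chromosome 5 to 37.7% on chromosome 19, with the overall share inside the interval on 17 of 22. Of the members, 3214 stood alone among their neighbours, 105 pairs were next to each other (210 members), and there was no run longer than a pair. In 62 pairs both lacked a 37dph peak, in 10 both had one, and 33 were mixed. Runs were not counted for other classes, but the nearest region was a member for 3.04% of members and for 2.97% of all regions. Another member lay within 10 kb of 480 members (14.0%), and 14.0% of all regions had a member within that distance.

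What lay around the members differed by subgroup. A region with a peak at all 4 stages had its centre within 10 kb in 60.7% (58.8 to 62.6) of those without a 37dph peak and 74.4% (71.5 to 77.1) of those with one. The same share was 63.2% over all regions, 53.6% for the regions with a 3dpf peak alone and 71.8% for those with 3dpf and 37dph peaks. The nearest region was one with a 3dpf peak alone for 40.3% of the members without a 37dph peak and 29.9% of those with one, against 37.6% of all regions. It was one with a peak at all 4 stages for 22.6% and 30.3%, against 25.9%. The surroundings of the members with a juvenile peak thus held more regions accessible at every stage, and those of the others more regions of the embryo alone.

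The regions named here were picked by the lower of their 3dpf and 23dph percentiles, so they are strong in both lists by choice. Coordinates are those of assembly ASM1334776v1, counted from 1. Nearby genes and the sequences of these regions were not analysed here.

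The strongest of the set was on chromosome 3 from 72136 to 72396, and it also had a 37dph peak. Its fold enrichment was 9.06 at 3dpf, 11.9 at 23dph and 11.5 at 37dph. Its percentile was 89.1 at 3dpf, 99.8 at 23dph and 99.9 at 37dph, where it ranked 47 among the 46248 peaks of the list. It was the one member whose 23dph peak was in the strongest 10% of its list. No 15dph peak was called within 17598 bp. Its neighbours on both sides, 4722 bp before and 5698 bp after, were regions with a 3dpf peak alone. The peak kept its width, with 256 bp at 3dpf, 261 bp at 23dph and 244 bp at 37dph.

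The other 4 picked from the regions with a 37dph peak did not stand as high in the juvenile list. The region on chromosome 12 from 26795442 to 26795737 had percentiles of 98.5 at 3dpf, 83.4 at 23dph and 74.1 at 37dph, with its nearest 15dph peak 13115 bp away. The one on chromosome 7 from 4178038 to 4178242 had 70.3, 78.4 and 44.4, and the nearest 15dph peak was 3758 bp off in a region with a peak at all 4 stages. On chromosome 20, from 10483644 to 10483944, percentiles were 80.7, 77.5 and 40.9, and a 15dph peak lay 490 bp away in a neighbouring region with 3dpf and 15dph peaks. On chromosome 8, from 2680888 to 2681302, they were 79.6, 70.6 and 18.3, and a 15dph peak lay 533 bp away in a region with a peak at all 4 stages. The 37dph peak of this member had a global IDR of 0.0761, near the limit of 0.1 of the lists. In both of the last cases the region next to the member kept a called 15dph peak where the member itself had none. The next region by this order, on chromosome 8 from 13180017 to 13180219, had 70.0, 72.4 and 23.2.

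The 5 picked from the regions without a 37dph peak all had 3dpf percentiles of at least 67.9 and lay at least 3992 bp from a 15dph peak. On chromosome 5, from 16593570 to 16594138, the fold was 5.30 at 3dpf and 6.30 at 23dph, the percentiles were 72.0 and 80.6, and the peaks were 569 and 479 bp wide. Its next region, 957 bp on, had a 3dpf peak alone. On chromosome 14, from 11874831 to 11875032, the fold was 8.12 and 6.13 and the percentiles 83.0 and 72.0. On chromosome 1, from 5057319 to 5057590, the fold was 10.3 and 5.98 and the percentiles 95.2 and 69.8, and the next region, 2183 bp on, was another member with much lower percentiles of 28.5 and 2.01. On chromosome 7, from 3000255 to 3000539, percentiles were 80.3 and 69.6, and the region 385 bp before it had a 3dpf peak alone. On chromosome 5, from 13549245 to 13549616, they were 67.9 and 70.2. The next region in this order, on chromosome 4 from 13483249 to 13483589, had 71.7 and 64.9.

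A few members mark the extremes of the set. The one furthest from a 15dph peak, on chromosome 13 from 19730085 to 19730791, was 110151 bp from it and 9773 bp from the nearest other region, and its percentiles were 33.6 at 3dpf and 5.32 at 23dph. The widest 23dph peak, of 886 bp, was on chromosome 2 in the region from 1972100 to 1973434, which had a 3dpf peak of 426 bp and a 37dph peak of 239 bp. This region was a chain of partly overlapping peaks. The 3dpf peak ended at 1972525, the 23dph peak ran from 1972425 to 1973310, and the 37dph peak started at 1973105. The 3dpf and 37dph peaks thus shared no base. The closest pair of members, 78 bp apart, lay on chromosome 12 from 6217372 to 6217533 and from 6217612 to 6217789. The first had percentiles of 27.7 at 3dpf and 3.31 at 23dph and no 37dph peak, and the second had 61.8, 34.1 and 59.9 at 3dpf, 23dph and 37dph. Chosen after its values were seen, the region on chromosome 15 from 37780 to 38102 had the highest 23dph percentile of those without a 37dph peak, 89.1, against 39.2 at 3dpf. Its fold was 5.06 at 3dpf and 7.89 at 23dph, and the nearest 15dph peak, 2297 bp before it, was in a region with 15dph, 23dph and 37dph peaks.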

How the data were processed

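ATAC-seq was performed on 2 replicates at each of 4 stages. The authors aligned reads to turbot assembly ASM1334776v1 with Bowtie2, adjusted read ends to the Tn5 cut site, called peaks with MACS2 and compared replicates by IDR, keeping peaks up to a global IDR of 0.1. The deposited lists, 1 per stage, give for each peak a score scaled from its IDR, a fold enrichment, a −log10 p (used here) and −log10 q (not used) from MACS2, a summit and −log10 IDR values. They hold no read counts or values of single replicates, so the reads behind each peak are not known from them, and library read totals were not used here. Lists of unequal length limit comparisons between stages.

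Peaks sharing at least 1 bp across lists were joined into 114193 regions (pandas 2.3.3 and numpy 2.4.6 under Python 3.11.15, with matplotlib 3.10.9 for plots), and the counts of all 15 combinations of stages matched those from bedtools 2.31.1. Joining was tested on 20000 simulated sites that lay well apart and held at most 1 peak of a stage. Several peaks of a stage in a region and chains of partly overlapping peaks were not part of that test. Where a region held several peaks of a stage, the strongest gave its values. Percentiles are ranks of −log10 p within a list. Named were the 5 members of each subgroup whose lower percentile of 3dpf and 23dph was highest, the member furthest from a 15dph peak, that with the widest 23dph peak, the longest runs and the members at the edge of the rule. The members and these rules were chosen with earlier results of these data known. Alternatives changed the IDR limit, list length, joining rule, ranking measure and the distance that counts as absent. Gene, motif and base-composition results were planned for a genome of this build and were not analysed here.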

Additional observations from a re-analysis of the deposited data

How the results depend on the processing

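Under 12 alternatives, 39 of 113 recomputed counts, shares and medians stayed close to the reported ones (counts within 1.5 times), and 74 moved further. The count of 3424 members became 1371 (1008 without and 363 with a 37dph peak) at an IDR of at most 0.01 in every list. It was 448 (265 and 183) at that limit for 3dpf and 23dph alone, and 1792 (1334 and 458) with the same number of peaks in every list. It became 1029 (782 and 247) with the top 50% of every list and 134 (70 and 64) with the top 50% of 3dpf and 23dph alone. With no 15dph peak within 2000 bp it was 1928 (1463 and 465). At an IDR of at most 0.05, with 50% of both peaks shared, with summits within 100 bp, on chromosomes only and with no 15dph peak within 500 bp, the counts stayed within 1.5 times. The share with a 37dph peak, 27.2%, became 40.8% with the 0.01 limit at 3dpf and 23dph alone, 47.8% with the top 50% of these, 25.6% with equal lists, 24.0% with the top 50% of every list, 33.4% with 50% shared, 30.6% by summits and 24.1% at 2000 bp. The share of 23dph regions without 15dph that had a 3dpf peak, 46.6%, became 49.9% at an IDR of 0.01, 41.8% with that limit at 3dpf and 23dph alone, 19.9% with equal lists, 41.9% with the top 50% of 3dpf and 23dph, 37.1% with 50% shared, 39.0% by summits, 44.4% at 500 bp and 43.1% at 2000 bp. Equal list lengths moved this last share furthest, and they shortened the 3dpf list more than the others.

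Of the 3424 reported members, 1790 were members again at an IDR of at most 0.05, 448 at 0.01 in every list and 1225 with equal lists. The share of regions with 3dpf and 23dph peaks that lacked 15dph stayed below the share of regions with 3dpf and 15dph peaks that lacked 23dph under the 9 alternatives in which both were computed (those on IDR, list length, joining and chromosomes), at 5.20% against 20.7% with an IDR of 0.01 in every list and 10.0% against 23.7% with 50% shared. With the 3dpf and 23dph lists alone cut, the shares were 1.70% against 33.0% (IDR of 0.01) and 0.666% against 37.5% (top 50%). Cutting the 23dph list beside a full 15dph list favours this order by itself, so these settings do not bear on it. No paired analysis was possible because only 1 joint list per stage was used, without values of single replicates, which also prevented leaving a replicate out. The alternatives on genes, start sites, motifs and base composition were not run, since no genome of the build was used here.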
